A study of Mus musculus with 20 samples.

Results

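The expression of 10 genes of branched-chain amino acid breakdown, Bcat2, Bckdha, Bckdhb, Dbt, Ivd, Acad8, Mccc1, Mccc2, Hibch and Pcca, was followed through the first 14 days of a high-fat diet in mouse fat. They were taken by symbol from the deposited table of raw read counts, as 10 of 39179 gene IDs, and all 10 passed the filter on low counts that left 15254 tested genes. The tissue was the epididymal fat pad, a visceral depot beside the epididymis, of male C57BL6/J mice, an inbred laboratory strain. Day 0 mice ate normal chow, and the remaining groups had eaten a high-fat diet for 2, 4, 6 or 14 days when sampled, with 4 libraries in each of the 5 groups. The labels name no transgene, mutation or drug and give no age, and they call the libraries biological replicates without saying whether each came from 1 animal. RNA of whole tissue was sequenced, so a lower level can come from fewer adipocytes or from less RNA per adipocyte, and these cannot be told apart.

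Leucine, isoleucine and valine share the first steps of their breakdown. A transaminase, Bcat2 in most tissues, removes the amino group in mitochondria, and the branched-chain ketoacid dehydrogenase complex then removes carbon dioxide in the committed step. Each ketoacid follows its own path from there, leucine to acetyl-CoA and ketone bodies, valine to propionyl-CoA, and isoleucine to both. Adipocytes carry the whole pathway, induce it when they differentiate and use its carbon for fat synthesis, and adipose levels of these enzymes are known to be lower in established obesity and insulin resistance.

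All 10 genes were well expressed, and their order is given as CPM (read counts scaled to the library total) per kilobase of merged exons in the GENCODE M21 annotation, averaged over the 20 libraries with the SD over them. Bckdha came first at 100.3 ± 24.4 CPM per kilobase, although 61.7% of its exon bases lie opposite exons of B3gnt8, whose own row holds 1644 reads against 69990 for Bckdha. Bcat2 (60.1 ± 17), Ivd (55.1 ± 13.7), Mccc2 (47.6 ± 10.4) and Bckdhb (43.9 ± 7.28 CPM per kilobase) formed the next levels. Lower still came Dbt (33.2 ± 6.33), Pcca (29.9 ± 4.92), Hibch (21.8 ± 3.79), Mccc1 (19 ± 4.32) and Acad8 (10.8 ± 1.29 CPM per kilobase). The ranges over libraries of every pair of neighbours in this order overlapped. The order also depends on the merged length, which counts every annotated exon: 10952 bases for Mccc1 and 2802 for Mccc2. By read counts alone Mccc1 lay above Mccc2, with a mean ratio of 1.57 on chow. Bcat1, the cytosolic transaminase, stood at 0.780 CPM per kilobase against the 60.1 of Bcat2.

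The promoters of 4 genes are shown because the results turn on them: Ivd fell on day 4, Mccc2 is among the genes closest to the mean of the 10, and Pcca and Pccb encode the partner subunits of 1 enzyme and are compared as a ratio. Each is the 250 bases before the gene's start in RefSeq (GRCm38.p6), read 5′ to 3′ on the gene's strand. Capitals mark CCAAT and GGGCGG, the CCAAT box and the GC box, on either strand.
Ivd, chr2:118861744-118861993, plus strand: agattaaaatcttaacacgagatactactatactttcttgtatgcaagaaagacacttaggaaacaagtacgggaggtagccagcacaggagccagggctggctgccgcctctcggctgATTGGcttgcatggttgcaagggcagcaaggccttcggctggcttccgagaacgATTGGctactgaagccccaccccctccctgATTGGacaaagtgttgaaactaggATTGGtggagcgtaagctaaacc
Mccc2, chr13:100015640-100015889, minus strand: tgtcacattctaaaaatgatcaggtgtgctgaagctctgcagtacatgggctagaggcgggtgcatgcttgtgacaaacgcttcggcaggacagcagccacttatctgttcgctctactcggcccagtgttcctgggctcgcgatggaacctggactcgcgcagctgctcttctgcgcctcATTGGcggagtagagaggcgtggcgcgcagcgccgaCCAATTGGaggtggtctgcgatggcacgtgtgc
Pcca, chr14:122534078-122534327, plus strand: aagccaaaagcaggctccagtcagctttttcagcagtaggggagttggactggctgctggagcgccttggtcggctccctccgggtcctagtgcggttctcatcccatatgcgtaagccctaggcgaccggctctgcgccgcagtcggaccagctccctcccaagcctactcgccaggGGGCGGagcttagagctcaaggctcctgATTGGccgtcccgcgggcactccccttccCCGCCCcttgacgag
Pccb, chr9:101034885-101035134, minus strand: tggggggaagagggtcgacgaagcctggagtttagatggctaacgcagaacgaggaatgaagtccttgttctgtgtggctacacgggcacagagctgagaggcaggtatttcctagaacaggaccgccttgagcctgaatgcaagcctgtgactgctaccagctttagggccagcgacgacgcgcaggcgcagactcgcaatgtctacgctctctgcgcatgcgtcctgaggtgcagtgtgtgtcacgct
The Ivd window held 4 CCAAT matches on the strand opposite the gene, which read ATTGG here, and the Mccc2 window held 3, of which 1 pair overlapped. The Pcca window held 1 CCAAT match and 2 GC boxes, and the Pccb window held neither motif. RefSeq windows were matched for 9 of the 10 genes, 12 windows in all. CCAAT lay in 7 of the 12 windows, from 6 genes, and GGGCGG in 5 windows, from 5 genes. Over all 32851 RefSeq windows of this length, 33.8% held CCAAT and 32.7% held GGGCGG. A nuclear receptor half-site, AGGTCA searched on both strands, lay in 2 of the 12 windows, from 2 genes, and in 14% of all windows.

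Library totals ran from 1916829 to 38832429 reads, the smallest being day 2 replicate 1. Several libraries stood apart from their groups in ways that touch the results. Day 4 replicate 1 held the highest value of its group in all 10 enzyme genes, and its summed CPM of 15 cell cycle genes was 142 against 658 to 788 in the other 3 day 4 libraries. Day 6 replicate 4 held the lowest value of its group in 9 of the 10 genes, with a cell cycle sum of 485, where its 3 companions held 115 to 190. Chow replicate 4 was lowest among the chow libraries in all 10 genes and carried 82.1 CPM of epididymis epithelium genes, against at most 5.61 in any other library. Cuzd1 alone made up 89.1% of this sum over the 20 libraries, and only 1 of the 10 listed epididymis genes passed the filter. The median day 4 change of the 10 genes is given below with and without day 4 replicate 1 and chow replicate 4. Without day 6 replicate 4, the median log2 change of the 10 from chow to day 6 was 0.18 instead of 0.12. From day 4 to day 6 it was then 0.46 instead of 0.36. Changes of single genes are not all given without these libraries. Adipocyte markers were abundant throughout, at 40532 to 87204 summed CPM over 16 genes, so the label of adipose tissue held in every library.

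Bcat2, the mitochondrial transaminase of the shared first step, ranged more widely over the chow libraries than its group means did, which lay between 181 and 272 CPM. Its level was 208, 214, 349 and 146 CPM in chow replicates 1 to 4, and 227, 348, 315 and 199 CPM on day 2. The day 4 libraries held 269, 136, 157 and 163 CPM, those of day 6 held 285, 326, 263 and 194 CPM, and those of day 14 held 175, 208, 245 and 261 CPM. All day 4 libraries but replicate 1 lay among the lowest, beside chow replicate 4, and the groups overlapped. The log2 change on day 4 was -0.34 ± 0.26 (SE) with an edgeR adjusted p = 0.317, and its 95% interval ran from -0.87 to 0.20.

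**Figure D1:**
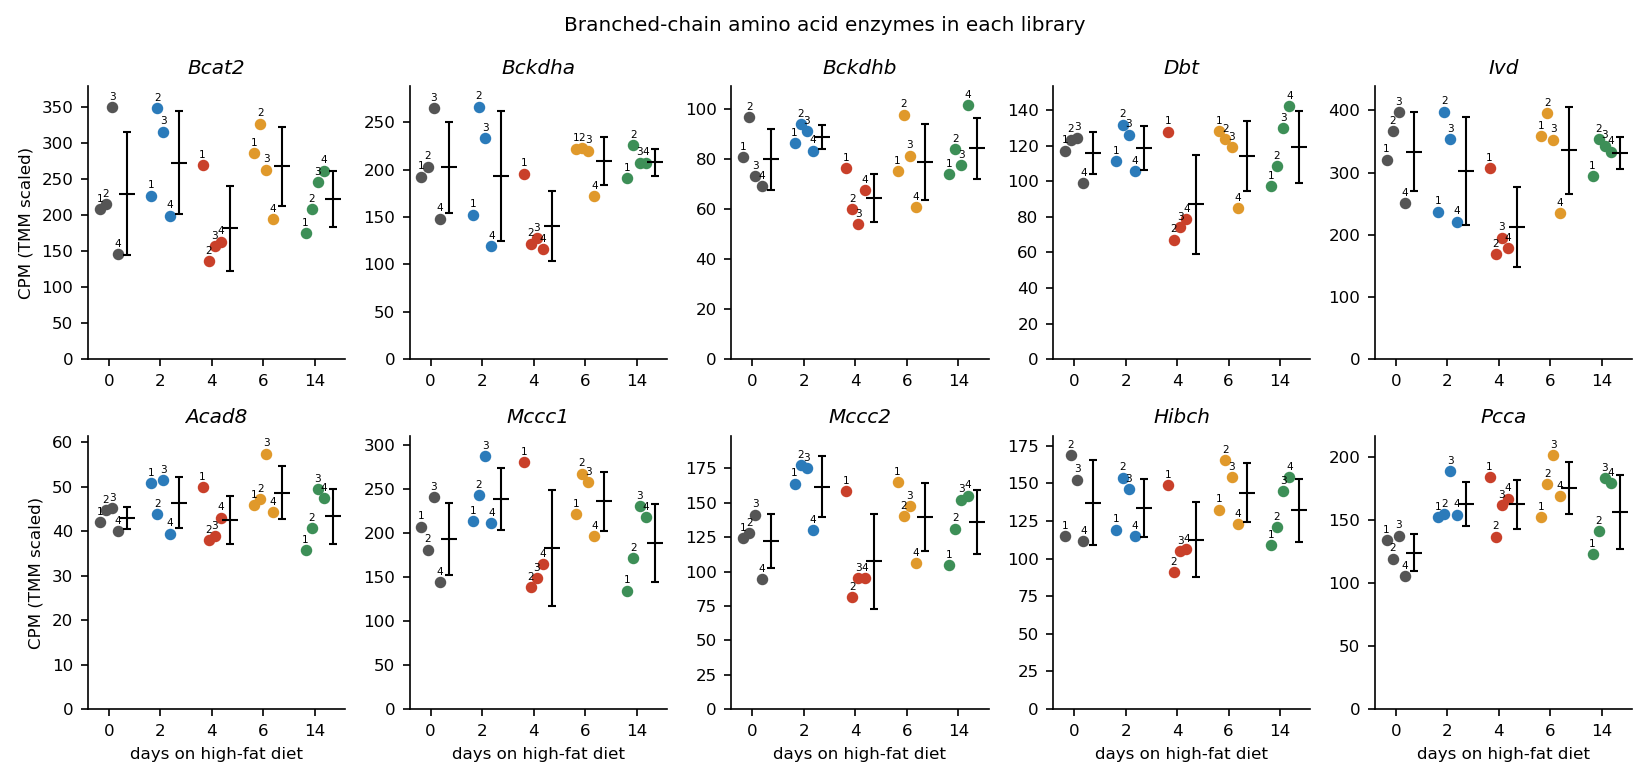
Level of each of the 10 enzyme genes in each library, as CPM scaled by TMM, with the replicate number above each point and bars giving the mean ± SD of 4 libraries. In every panel the highest day 4 point is replicate 1, and the chow point that lies lowest is replicate 4.

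The ketoacid dehydrogenase complex is built from decarboxylase subunits encoded by Bckdha and Bckdhb, the lipoate-bearing transacylase encoded by Dbt, and Dld, a dehydrogenase shared with other complexes. Bckdha measured 193, 203, 265 and 148 CPM on chow and 196, 122, 128 and 116 CPM on day 4. Its other high-fat groups were 153, 266, 233 and 119 CPM on day 2, then 222, 222, 220 and 172 CPM on day 6, then 191, 226, 207 and 207 CPM on day 14. The other day 4 libraries lay below every chow library, while day 4 replicate 1 lay within the chow range. The day 4 change was -0.52 ± 0.22 (edgeR adjusted p = 0.0715), and by day 14 the mean of 208 ± 14.1 CPM stood beside 202 ± 48.1 CPM on chow (SD, n = 4).

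Bckdhb and Dbt also had their highest day 4 value in replicate 1. Dbt measured 117, 123, 125 and 99.1 CPM on chow, and 128, 67.2, 74.1 and 78.7 CPM on day 4. Apart from replicate 1, which lay above every chow library, the day 4 libraries lay below the whole chow range. Dbt then measured 128, 124, 119 and 85.0 CPM on day 6 and 97.2, 109, 130 and 142 CPM on day 14, both overlapping chow. Bckdhb measured 80.6, 96.6, 73.1 and 69.1 CPM on chow and 76.4, 59.9, 53.9 and 67.5 CPM on day 4, and its 4 day 2 libraries, at 83.2 to 93.8 CPM, all lay above the 4 of day 4. The day 4 changes from chow were -0.41 ± 0.18 for Dbt (edgeR adjusted p = 0.0794) and -0.30 ± 0.14 for Bckdhb (edgeR adjusted p = 0.105).

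Ivd, isovaleryl-CoA dehydrogenase of the leucine path, was the enzyme gene that fell on day 4. It measured 321, 367, 397 and 251 CPM on chow, and 237, 398, 354 and 221 CPM on day 2. The day 4 libraries held 308, 169, 196 and 179 CPM, and 3 of them lay below every other library of the series. On day 6 the level was 359, 396, 353 and 235 CPM, and on day 14 it was 295, 354, 343 and 334 CPM, so both later groups overlapped chow. The day 4 change was -0.65 ± 0.22, a fold of 0.639, with an edgeR adjusted p = 0.0266. Leaving out 1 library at a time, the edgeR adjusted p ran from 0.00368 to 0.0915: the call was lost without chow replicate 2 or 3 or without day 4 replicate 2, 3 or 4, and the change was -0.88 without day 4 replicate 1.

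Mccc1 and Mccc2 encode the biotin-bearing and the carboxyltransferase subunit of methylcrotonyl-CoA carboxylase, the biotin enzyme after Ivd on the leucine path. Mccc1 measured 207, 181, 240 and 144 CPM on chow and 281, 138, 149 and 165 CPM on day 4. Mccc2 measured 124, 128, 141 and 94.7 CPM on chow and 158, 81.3, 95 and 95.2 CPM on day 4. Day 4 replicate 1 was above every chow library in both genes, and the other 3 lay at or below the lower part of the chow range. On day 2 both genes were on average above chow, with Mccc2 at 162 ± 21.9 CPM against 122 ± 19.7 CPM (SD, n = 4), but the groups overlapped and the change of 0.41 ± 0.19 had an edgeR adjusted p = 0.187. Their means on days 6 and 14 were 236 ± 33.0 and 189 ± 44.2 CPM for Mccc1 and 140 ± 24.7 and 136 ± 23.4 CPM for Mccc2.

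Acad8 and Hibch serve the valine path, Acad8 as isobutyryl-CoA dehydrogenase and Hibch as the hydrolase that releases 3-hydroxyisobutyrate. Acad8 varied least of the 10 relative to its mean, at 43.0 ± 2.42 CPM on chow, then 46.4 ± 5.75, 42.5 ± 5.43, 48.7 ± 5.94 and 43.3 ± 6.25 CPM on days 2, 4, 6 and 14. Its day 4 change of -0.01 ± 0.12 had a 95% interval from -0.25 to 0.24. Hibch measured 115, 169, 153 and 111 CPM on chow and 149, 90.8, 105 and 107 CPM on day 4, where 3 of 4 libraries lay below the chow range. Its day 4 change was -0.28 ± 0.17 (edgeR adjusted p = 0.204), and its means on days 2, 6 and 14 were 134 ± 19.4, 144 ± 19.6 and 132 ± 20.9 CPM against 137 ± 28.2 CPM on chow.

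Pcca, the biotin-bearing subunit of propionyl-CoA carboxylase, was the gene of the 10 with a positive change on day 4. It measured 134, 119, 137 and 105 CPM on chow. On day 2 the libraries held 152, 154, 189 and 154 CPM, all above chow, and on day 6 they held 152, 178, 201 and 169 CPM, again with no overlap. Day 4 gave 184, 137, 162 and 167 CPM and day 14 gave 122, 141, 183 and 179 CPM, each overlapping chow. Pcca rose on day 4 by 0.39 ± 0.13 (edgeR adjusted p = 0.0286) and on day 6 by 0.50 ± 0.13 (edgeR adjusted p = 0.0462), a fold of 1.31 and 1.41. The changes on day 2, 0.39 ± 0.13 (edgeR adjusted p = 0.0841), and on day 14, 0.33 ± 0.13 (edgeR adjusted p = 0.187), were not called. Both calls were fragile: without chow replicate 4 the edgeR adjusted p was 0.10 on day 4 and 0.165 on day 6, and the call was also lost without chow replicate 2, without day 4 replicate 1, 3 or 4, and without day 6 replicate 2, 3 or 4. With limma-voom and quality weights the adjusted p was 0.0546 on day 4 and 0.0296 on day 6.

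**Figure D2:**
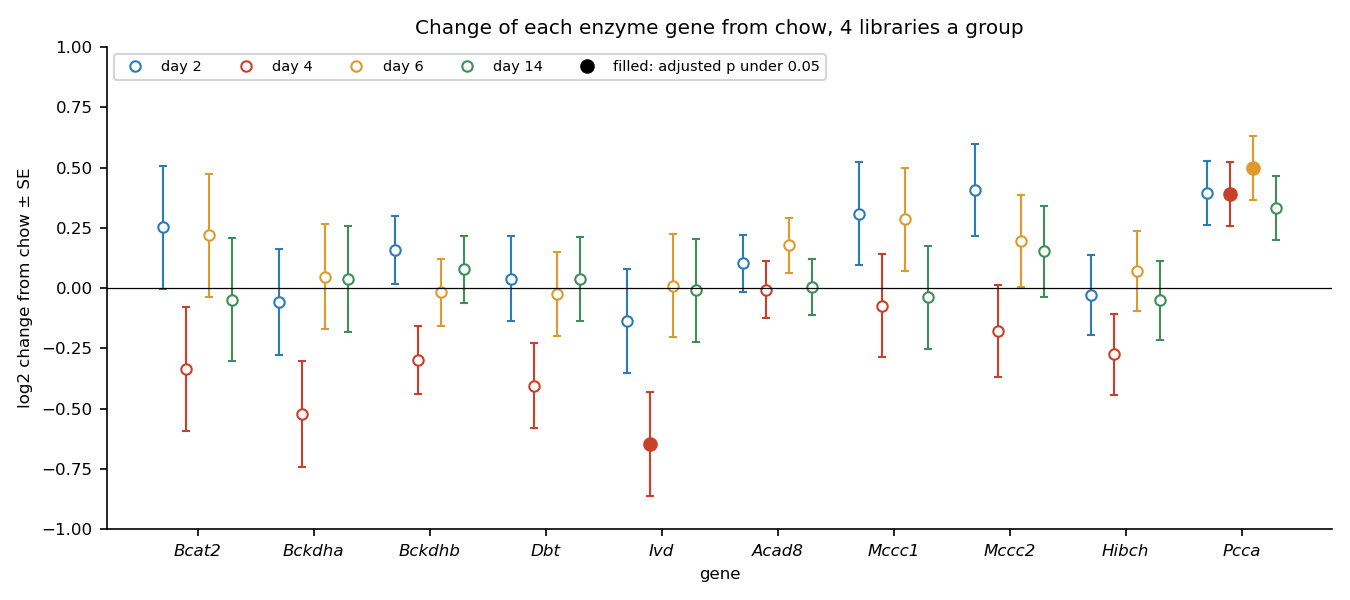
Log2 change of each enzyme gene from chow on days 2, 4, 6 and 14, with its standard error from the edgeR fit. Filled points had an adjusted p under 0.05: Ivd on day 4, Pcca on day 4 and Pcca on day 6, and the day 4 value is the lowest of the 4 days for every gene except Pcca.

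Counted together, 2 of the 10 genes were called on day 4, 1 higher and 1 lower, when 35.3% of all tested genes were called, 17.3% as lower and the rest as higher. None of the 10 was called on day 2, against 4.39% of all genes. Day 6 had only Pcca, against 3.45%, and day 14 had none, against 1.18%. The share of the 10 that was called exceeded the background only on day 6, where it rests on 1 gene. At an unadjusted p under 0.05, edgeR had 2, 5, 1 and 1 of the 10 on days 2, 4, 6 and 14, where 25.8%, 46.2%, 24.4% and 18% of all genes had one. Their median log2 change was 0.13, -0.29, 0.12 and 0.02 on days 2, 4, 6 and 14, while the median of all genes lay between -0.03 and -0.01. Scaled by library size only, the medians of the 10 were 0.02, -0.40, -0.01 and -0.08, so those of days 6 and 14 changed sign. Without chow replicate 4 they were 0.08, -0.37, 0.01 and -0.06. These 4 comparisons share the chow libraries.

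Between high-fat days the 10 genes had median changes of -0.45 from day 2 to day 4, 0.36 from day 4 to day 6 and 0.31 from day 4 to day 14. These 3 comparisons share the day 4 libraries. The change was below 0 for all 10 in the first, although that of Pcca was -0.0020, above 0 for all 10 in the second and above 0 for all but Pcca in the third. None of the 10 was called by edgeR in any of them, when 2.40%, 0.00% and 9.36% of all genes were, nor in the test of any difference among the 5 groups, which called 19.6% of all genes. At an unadjusted p under 0.05, edgeR had 5, 4 and 4 of the 10 in these comparisons, against 22.3%, 16.3% and 28.3% of all genes, and 2 in the test of any difference, against 37.6%. From day 4 to day 6 DESeq2 called 0 of the 10 and 1 gene in all, and limma-voom called 8 of the 10 and 13.2% of all genes. In the test of any difference the lowest edgeR adjusted p of the 10 was 0.0675, for Pcca, and the highest was 0.552, for Acad8.

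Leaving out 1 library moved several of these counts, and for day 4 against chow the number called ran from 0 to 5. The median day 4 change of the 10 was -0.43 without day 4 replicate 1. It was -0.20, -0.23 and -0.27 without day 4 replicates 2, 3 and 4, and each of these omissions ended the call of Ivd. The highest count came without replicate 1, the library that held the highest value of its group in all 10 genes. Leaving it out therefore lowers the day 4 level of all 10, and the calls below are not separate evidence of a fall. Without day 4 replicate 1, 5 of the 10 genes were called lower on day 4 than on chow and none higher, when 37.1% of all genes were called. They were Ivd (-0.88, edgeR adjusted p = 0.00368), Dbt (-0.66, edgeR adjusted p = 0.00276), Bckdha (-0.73, edgeR adjusted p = 0.0162), Hibch (-0.44, edgeR adjusted p = 0.0418) and Bckdhb (-0.39, edgeR adjusted p = 0.0472). Day 4 against day 2 then had 6 called lower, Bcat2, Bckdhb, Dbt, Ivd, Mccc1 and Mccc2, against 14.5% of all genes called. Day 6 against day 4 had 3 called higher, Dbt, Ivd and Mccc2, against 4.78%, and day 14 against day 4 had 5, Bckdha, Bckdhb, Dbt, Ivd and Mccc2, against 17.1%. Bckdha, Bckdhb and Dbt of the ketoacid dehydrogenase were thus called lower on day 4 than on chow when this library was left out, and none of them was with it, while their partner Dld was at 0.33 with it and 0.22 without it, not called in either.

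The 10 genes moved together from library to library, inside the groups as well as between them. Averaged over the 10, the log2 difference from the chow mean was -0.01, 0.09, 0.23 and -0.32 in chow replicates 1 to 4, and 0.03, 0.33, 0.33 and -0.13 on day 2. It was 0.22, -0.51, -0.39 and -0.33 on day 4, then 0.18, 0.31, 0.27 and -0.15 on day 6, and -0.22, 0.01, 0.19 and 0.24 on day 14. Every group held at least 1 library below the chow mean. The chow libraries alone ran from -0.32 to 0.23 on this scale, while the median gene differed by -0.29 between day 4 and chow. In day 14 replicate 1 all 10 genes were at their lowest of that day, and in day 2 replicate 4 this held for 9 of the 10.

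Across the 20 libraries the correlation of each gene's log2 CPM with the mean of the other 9 was 0.93 for Bcat2, 0.91 for Mccc2, 0.89 for Dbt and Hibch, 0.88 for Mccc1, 0.82 for Ivd, 0.78 for Bckdha, 0.73 for Acad8 and 0.71 for Bckdhb. Pcca was the loosest, at 0.43. The 45 pairs ran from 0.12, for Ivd with Pcca, to 0.96, for Bckdha with Ivd, and 35 of them exceeded 0.5. These values describe 20 libraries that share groups and scaling, and the mean of the 10 had r = 0.24 with the log2 library total.

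Among 10839 genes that averaged 5 CPM or more, those most like the mean of the 10 over the 20 libraries were Trap1, a mitochondrial chaperone, at r = 0.979, and Csad, an enzyme of taurine synthesis, also at 0.979. Acadsb (0.931), Pccb (0.924), Hibadh (0.914) and Mut (0.909), which are enzymes of the isoleucine, propionate and valine paths, stood at ranks 3, 4, 5 and 7. Pgm1 (0.912), a phosphoglucomutase, and Pfkfb1 (0.907), a regulator of glycolysis, were the others of the first 8. Only 11 genes reached 0.9, and 13.1% reached 0.5. Trap1 traces the libraries closely: it measured 195, 204, 215 and 156 CPM on chow and 227, 153, 164 and 165 CPM on day 4. At the other end, Slc7a5, the plasma membrane exchanger that carries leucine, had r = -0.81 and rank 10814.

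The rest of the pathway was read from a list of 41 genes, 39 of them tested. On day 4, 13 of the 39 were called, 5 higher and 8 lower, a share no higher than the 35.3% of all genes called, and their median change was 0.13. Day 2 had 1 called gene, Oxct1 (0.67 ± 0.14), against 4.39% of all genes. Day 6 had Oxct1, Mmab and Btd, all higher, against 3.45%. Day 14 had none, against 1.18%. At an unadjusted p under 0.05, edgeR had 22, 17, 16 and 8 of the 39 on days 2, 4, 6 and 14. The shares of all genes were 25.8%, 46.2%, 24.4% and 18%, so days 2 and 6 lay above the background by this count. The median changes of the 39 on days 2, 6 and 14 were 0.17, 0.17 and 0.06. The 2 low genes, Agxt2 and Slc6a15, did not pass the filter.

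Of the phosphatase and the kinase of the committed step, the phosphatase gene was called on day 4. Ppm1k, the phosphatase that activates the ketoacid dehydrogenase, measured 14.6, 21.2, 24.6 and 15.3 CPM on chow and 8.97, 9.67, 7.77 and 6.67 CPM on day 4, with no overlap. It fell by 1.20 on the log2 scale (SE 0.25, edgeR adjusted p = 0.00247) and stayed called whichever chow or day 4 library was left out. Its kinase Bckdk, which inactivates the complex, measured 80.0, 64.3, 79.5 and 60.9 CPM on chow and 86.3, 80.7, 72.1 and 81.6 CPM on day 4 (0.17 ± 0.10, edgeR adjusted p = 0.167). On day 14 Ppm1k was at 11.8, 18.2, 15 and 17.4 CPM, called higher than on day 4 by 0.92 (edgeR adjusted p = 0.0371). The share of all genes called in that comparison was 9.36%, and 3 other pathway genes were called there: Abat (1.35) and Slc43a1 (1.19) higher, Slc38a2 (-0.72) lower. All 4 of these calls were lost without day 4 replicate 2, 3 or 4 or day 14 replicate 1 or 2, and those of Ppm1k and Slc43a1 also without day 14 replicate 4.

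Along the leucine path, Auh, the hydratase after the carboxylase, was at 0.13 ± 0.10 on day 4 (edgeR adjusted p = 0.311). Oxct1, which activates ketone bodies for use, rose. Oxct1 measured 258, 283, 301 and 219 CPM on chow, 423, 380, 483 and 399 CPM on day 2, and 460, 494, 552 and 535 CPM on day 4. It held 399, 537, 488 and 538 CPM on day 6 and 302, 350, 490 and 443 CPM on day 14. No day 2, 4, 6 or 14 library overlapped chow, and the changes were 0.67, 0.94, 0.89 and 0.58, of which the last was not called (edgeR adjusted p = 0.0549). The day 2 call was lost in 5 of 8 fits that left out 1 library, those without chow replicate 2 or 4 or day 2 replicate 1, 3 or 4, and the day 6 call was lost without chow replicate 4 (edgeR adjusted p = 0.0687). Btd and Mmab lost their day 6 calls without chow replicate 2 or 4 or day 6 replicate 2, 3 or 4.

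On the valine path, Aldh6a1, the semialdehyde dehydrogenase that makes propionyl-CoA, measured 534, 756, 808 and 545 CPM on chow and 561, 274, 285 and 264 CPM on day 4. Day 4 replicate 1 again lay within the chow range and the other 3 far below it. Aldh6a1 fell on day 4 by 0.93 (SE 0.25, edgeR adjusted p = 0.00925), and 18.6% of its exon bases lie opposite Bbof1, which has few reads (1240 against 195962). Abat, a transaminase, fell by 1.23 (SE 0.35, edgeR adjusted p = 0.0122), a call lost without chow replicate 4 or day 4 replicate 4 (highest edgeR adjusted p = 0.0523). Hibadh was not called (-0.20 ± 0.14). On the isoleucine path Hsd17b10, a mitochondrial hydroxyacyl-CoA dehydrogenase, fell by 0.63 (SE 0.14, edgeR adjusted p = 0.00356), and Acadsb was at -0.36 ± 0.19 (edgeR adjusted p = 0.140).

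**Figure D3:**
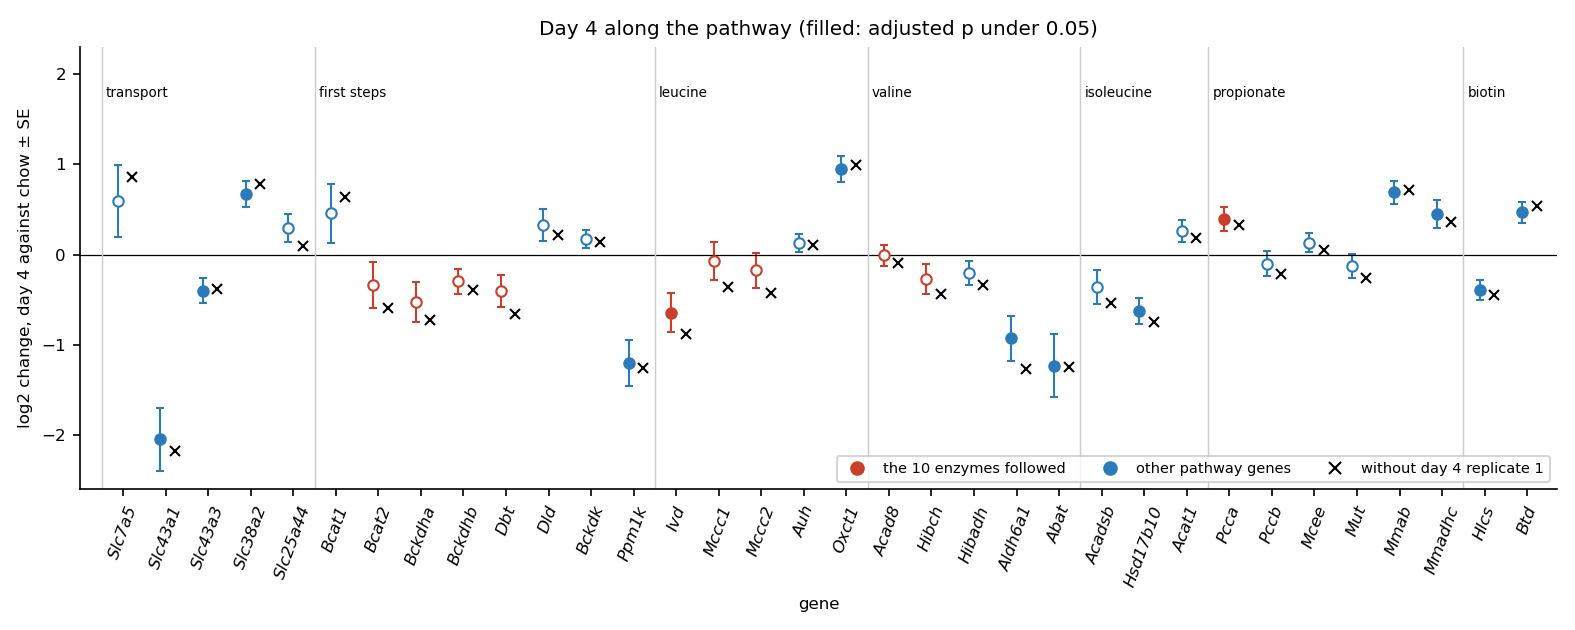
Log2 change on day 4 against chow along the pathway, ordered by step, as circles with standard errors, filled where the adjusted p was under 0.05; crosses give the value without day 4 replicate 1. Red marks the 10 enzymes and blue the other genes. Slc43a1 at -2.05 and Oxct1 at 0.94 are the extremes. The crosses lie below the circles for all 10 enzymes, which follows from replicate 1 holding the highest day 4 value of each.

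In the propionate branch 2 of 4 genes of cobalamin handling rose on day 4, Mmab and Mmadhc, when 35.3% of all genes were called. Mmachc (0.28 ± 0.15) and Mmaa (-0.03 ± 0.16) were not called. Mmab, which makes the cofactor of the mutase, measured 38.0, 30.2, 35.9 and 29.4 CPM on chow and 50.6, 55.1, 53.0 and 56.8 CPM on day 4, a change of 0.69 ± 0.13 (edgeR adjusted p = 0.00141). Mmadhc, which directs cobalamin inside the cell, rose by 0.45 ± 0.16 (edgeR adjusted p = 0.0324), a call lost without chow replicate 2, 3 or 4 or day 4 replicate 1 or 4. Pccb was at -0.10 ± 0.14 and Mut, the methylmalonyl-CoA mutase, at -0.13 ± 0.13. Of the biotin genes, Btd, which recycles biotin, rose by 0.47 ± 0.12, and Hlcs, which attaches biotin to Pcca, Mccc1 and other carboxylases, fell by 0.39 (SE 0.11, edgeR adjusted p = 0.0105).

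Of 8 transporter genes tested, 1 was called higher and 2 lower on day 4, when 35.3% of all genes were called. Slc43a1, a carrier of large neutral amino acids, measured 40.7, 62.0, 72.2 and 36.4 CPM on chow and 15.4, 12.4, 12.4 and 10.6 CPM on day 4. It fell by 2.05 (SE 0.35, edgeR adjusted p = 0.00118) with no overlap and stood at 25.8, 37.4, 24.1 and 28.6 CPM on day 14. Slc38a2, a sodium-coupled carrier of small neutral amino acids, rose on day 4 by 0.67 ± 0.14 (edgeR adjusted p = 0.00252), from 75.3, 68.0, 67.3 and 76.6 CPM to 88.6, 124, 125 and 122 CPM. Slc43a3 fell by 0.40 (SE 0.14, edgeR adjusted p = 0.0305), a call lost without chow replicate 1 or 2 or day 4 replicate 1, 3 or 4. Slc25a44, the mitochondrial carrier of branched-chain amino acids, was at 0.29 ± 0.16 and Slc7a5 at 0.59 ± 0.40, neither called.

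Bcat1 (0.46 ± 0.32) and Dld (0.33 ± 0.18) were not called on day 4. Of 8 regulators listed, Klf15, a transcription factor known to induce this pathway, fell on day 4 by 0.69 (SE 0.20, edgeR adjusted p = 0.0145), from 84.1, 135, 95 and 81.1 CPM to 78.5, 43.9, 70.4 and 51.3 CPM, a call lost without chow replicate 2 or day 4 replicate 2 or 4 (highest edgeR adjusted p = 0.0600). Srebf1, a driver of lipid synthesis genes, rose by 0.85 ± 0.18 on day 2 and 0.48 ± 0.17 on day 4. Mlx (0.62 ± 0.21), a partner of the carbohydrate-sensing factor Mlxipl, and Esrra (0.58 ± 0.21), a receptor that acts on mitochondrial genes, also rose on day 4. The day 4 calls of these 3 each ended without chow replicate 2 or 4 or day 4 replicate 3 or 4, those of Mlx and Esrra also without chow replicate 3, and those of Srebf1 and Esrra also without day 4 replicate 1. The day 2 call of Srebf1 ended without chow replicate 2 or 4 or day 2 replicate 1 or 4. Among related enzymes, calls on day 4 went in both directions, read against the 35.3% of all genes called that day. Of 6 genes of the pyruvate and oxoglutarate dehydrogenases, the complexes built like that of the ketoacids, Dlat (0.57), Pdhx (0.56) and Dlst (0.34) rose on day 4 and none fell, with Pdha1 at -0.33 ± 0.19, Pdhb at 0.05 ± 0.23 and Ogdh at 0.08 ± 0.10. Of 9 other acyl-CoA dehydrogenases, Acads (0.47), Acadl (0.61) and Acad9 (0.47) rose, Acad10 (-0.93) and Acad12 (-0.90) fell, and Acadm (0.12), Acadvl (0.14), Gcdh (-0.27) and Acad11 (-0.27) were not called. Of 3 other biotin carboxylases Acacb (-0.98) fell, and Acaca (-0.86) and Pcx (-0.03) were not called. The calls of Dlat, Dlst, Pdhx and Acads were lost without chow replicate 4. Those of Dlat, Dlst and Pdhx were also lost without day 4 replicate 4, those of Dlst and Pdhx without chow replicate 2 or day 4 replicate 1, that of Dlst without chow replicate 3 and that of Pdhx without day 4 replicate 3. The call of Acacb was lost without chow replicate 1 or 3 or day 4 replicate 2, 3 or 4.

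Partner genes can be compared within a library, where scaling cancels. Pcca over Pccb, as a ratio of read counts, was 0.554, 0.568, 0.525 and 0.570 on chow. It was 0.595, 0.591, 0.684 and 0.719 on day 2, then 0.713, 0.717, 0.870 and 0.824 on day 4. On day 6 it was 0.599, 0.710, 0.776 and 0.797, and on day 14 it was 0.640, 0.645, 0.679 and 0.666. All 16 high-fat libraries lay above all 4 chow libraries, day 4 replicate 1 and day 2 replicate 1 included. Every day was compared with the same 4 chow libraries, so the days are not independent of each other. Pcca alone was also on average above chow on each day. How many pairs among all genes separate in this way was not counted. Each day gave an exact two-sided permutation p = 0.0286, the smallest that 4 against 4 can give, and an adjusted p = 0.114 over 20 ratio tests, so none passed. With that smallest value, an adjusted p under 0.05 needed most of the 20 tests to reach it, so the adjusted values cannot decide for or against a single ratio. The log2 difference from chow was 0.22, 0.49, 0.37 and 0.25 on days 2, 4, 6 and 14, and lay between 0.44 and 0.53 on day 4 whichever library was left out.

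Bckdk over Ppm1k was 5.48, 3.04, 3.23 and 3.99 on chow and 9.62, 8.35, 9.29 and 12.2 on day 4, with no overlap and the same exact permutation p = 0.0286 (adjusted p = 0.114). The ratio was 11, 5.07, 6.39 and 10.4 on day 2, then 5.43, 4.46, 9.38 and 7.43 on day 6. Day 14 gave 5.79, 4.05, 5.45 and 4.22, and each of these 3 days overlapped chow. Mccc1 over Mccc2, Bckdha over Bckdhb and Bckdha over Dbt overlapped chow on every day. For Mccc1 over Mccc2 the ranges were 1.41 to 1.70 on chow and 1.57 to 1.77 on day 4. No ratio of subunits other than that of Pcca and Pccb separated from chow.

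**Figure D4:**
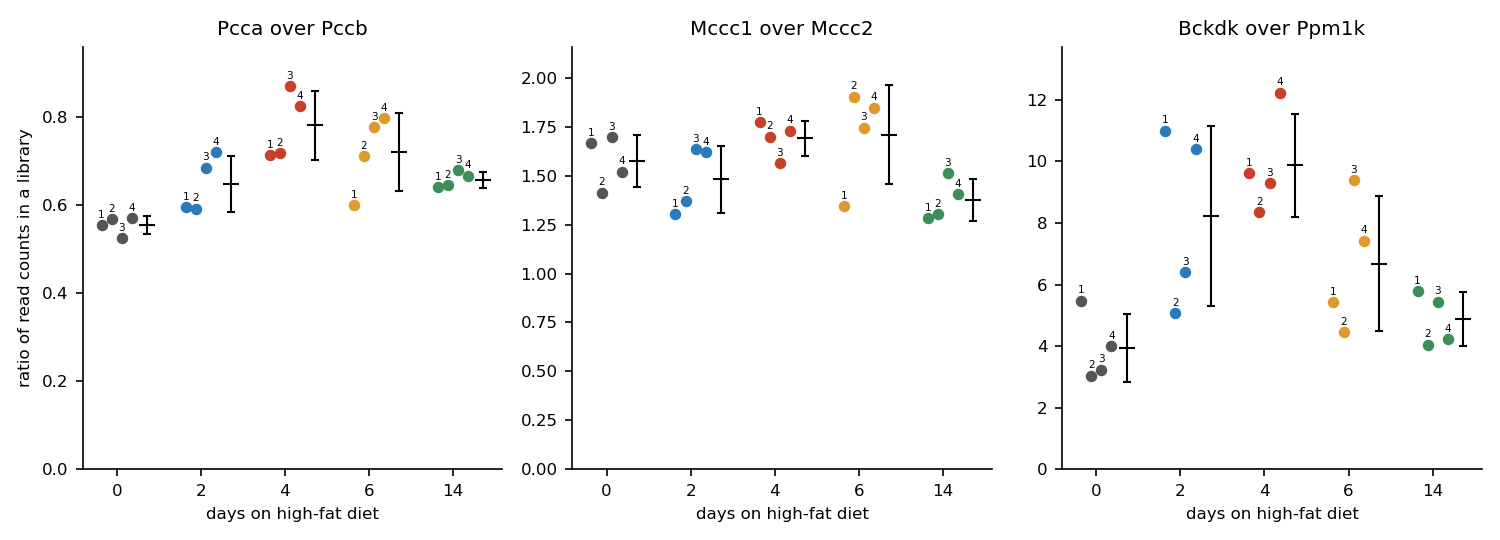
Ratio of read counts of partner genes in each library, numbered by replicate, with bars for the mean ± SD of 4 libraries; the axes start at 0. Pcca over Pccb lies at 0.525 to 0.570 on chow and at 0.591 or more in every high-fat library, Mccc1 over Mccc2 overlaps between groups, and Bckdk over Ppm1k is at 8.35 or more in all day 4 libraries.

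The levels of the 10 enzymes tracked those of adipocyte markers. The log2 of the summed CPM of 16 adipocyte markers had r = 0.92 with the mean of the 10 over 20 libraries, and 0.92 again for deviations from the group means. Without day 4 replicates 2 and 3, the libraries farthest from the median of that mean, it was 0.88, and Car3 alone makes up 31.3% of the marker sum. Summed over the 10 genes, the level ran from 1040 to 2012 CPM, but per 1000 CPM of adipocyte markers it ran only from 22.5 to 31.4. That ratio was 24.9 ± 0.997 on chow (SD, n = 4). In the high-fat groups it was 26.6 ± 3.18, 26.2 ± 0.962, 25.1 ± 1.80 and 23.7 ± 0.663, in order of days. Day 4 replicate 1, with 67854 CPM of adipocyte markers where its companions held 40532 to 45965, had a ratio within the range of its group.

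**Figure D5:**
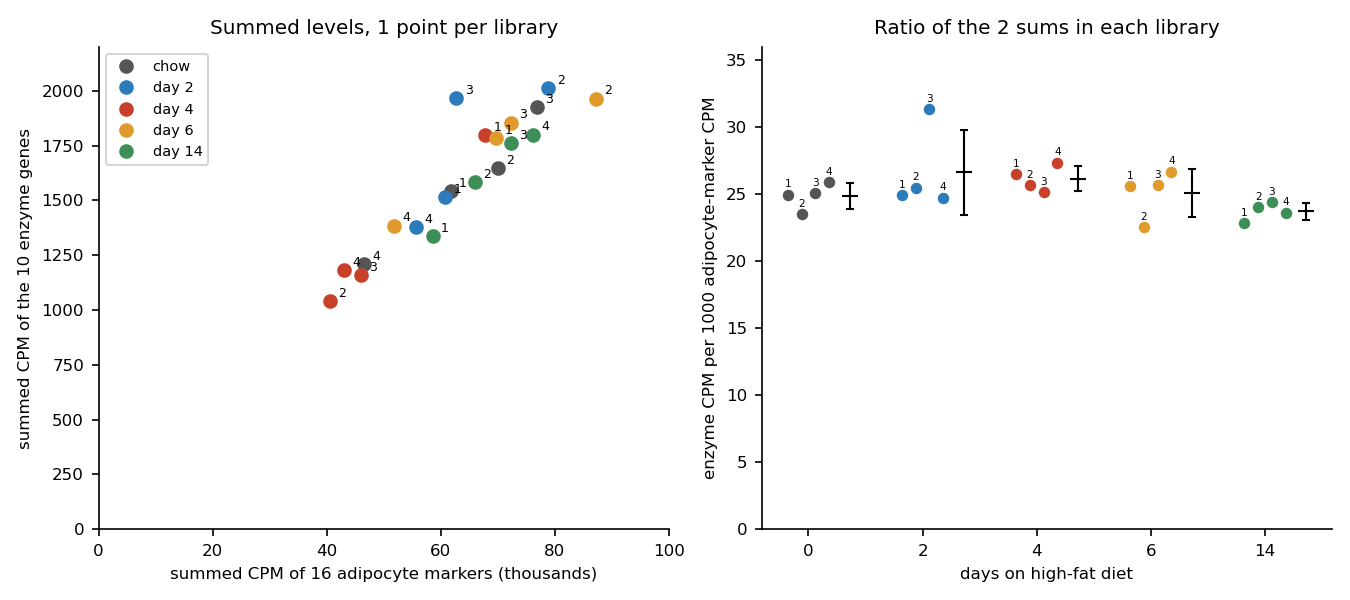
Left, summed CPM of the 10 enzyme genes against summed CPM of 16 adipocyte markers, 1 point per library with its replicate number. Right, the ratio of these sums in each library with the mean ± SD of 4; the sums range from 1040 to 2012 CPM for the enzymes, and the ratio ranges from 22.5 to 31.4 per 1000.

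As a list, the adipocyte markers had 1 gene called higher and 4 lower of 16 on day 4, against 35.3% of all genes called. Their median change was -0.09, with 8 genes above 0 and 8 below. On days 2, 6 and 14 they had 1 called higher each, against 4.39%, 3.45% and 1.18% of all genes called. Sums of some other lists were negatively correlated with the enzymes. Cell cycle genes had r = -0.65 with the mean of the 10, smooth muscle genes -0.73, endothelial genes -0.63 and progenitor genes -0.44. Without day 4 replicates 2 and 3 these were -0.41, -0.57, -0.40 and -0.13. With the mean log2 level of each list instead of its sum, over all 20 libraries, they were -0.61, -0.52, -0.57 and -0.37. Acta2 makes up 50.8% of the smooth muscle sum and Ighm 98.7% of the B cell sum. The macrophage (-0.32), T and NK cell (0.27), B cell (0.18) and mesothelial (0.13) sums had values nearer 0. On day 4, when 35.3% of all genes were called, 15 of 15 cell cycle genes, 5 of 10 endothelial genes and 1 of 5 smooth muscle genes were called higher, and 11 of 11 mesothelial genes were called lower. Of 11 progenitor genes, 4 were called higher and 3 lower. The smooth muscle list had a median change of -0.01, with 3 of 5 genes negative. Summed cell cycle CPM was 79.7 to 108 on chow and 142 to 788 on day 4. Smooth muscle genes summed to 168 to 269 CPM on chow and 147 to 414 CPM on day 4, and endothelial genes to 913 to 1237 CPM and 1089 to 2014 CPM. Progenitor genes summed to 3466 to 4550 CPM on chow and 3581 to 6385 CPM on day 4. The part of these cell types in the enzyme results was not tested.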

How the data were processed

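The authors deposited 1 table of raw counts of reads per gene, whole numbers for 39179 Ensembl IDs in 20 libraries. Per the labels' protocols, a silica column gave the RNA and a TruSeq kit the libraries. Tools listed in the submitters' processing notes are STAR, featureCounts, CASAVA, R 3.0 and limma. The genome build, annotation and strand setting are not given in the sources used here. The 10 genes, the gene lists and the rule for named genes (all 10, pathway genes called against chow, a fixed panel, comparator enzymes and the 8 genes closest in pattern) were chosen with earlier results of these data known. A gene of the pathway list is counted there but not reported here by name.

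Counts were scaled with TMM after edgeR's filterByExpr (minimum count 10, minimum total 15) and tested in 1 quasi-likelihood fit of all 20 libraries (edgeR 4.0.16, R 4.3.3, 15 residual degrees of freedom). P-values were adjusted by Benjamini-Hochberg over 15254 genes, with calls at an adjusted p under 0.05. P-values measure the spread between these libraries. On simulated counts for day 4 against chow, run on 15086 genes, 50 genes were changed at each size. The fit called 32% of those changed by 0.5 on the log2 scale, 51.0% of those changed by 1, and 0.0336% of unchanged genes. In the real comparison 35.3% of genes were called, so its adjustment differs and these shares do not describe the day 4 test. Correlations use log2 CPM with a prior count of 2. Libraries of 1 group differed by more than sampling noise (chi-square per degree of freedom at least 4.45), so none was counted as a duplicate. Columns were matched to samples by name. Alternatives were DESeq2 1.42.0, limma-voom with quality weights (limma 3.58.1), other scaling and filters, a replicate block, and leaving out each library.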

Additional observations from a re-analysis of the deposited data

Results flagged for a closer look

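In 90 groups of 4 libraries, covering 18 genes, 4 held a single library far from the others of its group by Dixon's criterion on the gap to the nearest library, and chance flags about 1 in 20 groups. Bckdha measured 195.8 CPM in day 4 replicate 1 against 116 to 128 CPM in the other 3 libraries of that day. Bckdha also measured 171.8 CPM in day 6 replicate 4, below the 220.0 to 222 CPM of the rest. Pcca measured 188.7 CPM in day 2 replicate 3 against 152 to 154 CPM. Slc38a2 measured 88.58 CPM in day 4 replicate 1, below the 122 to 125 CPM of the rest of that day.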

How the results depend on the processing

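Over 9450 recomputed values of single genes, 8974 kept their side of the threshold, 217 lost a call, 259 gained one and none of the called values changed sign, while 459 uncalled values did. Of the 10 enzymes, the number called on day 2 was 1 with DESeq2, which called 9.71% of all genes it gave an adjusted p. On day 4 it was 0 at an adjusted p under 0.01 (17.3% of all genes), 6 with library size only (35.6%) and 7 with limma-voom (43.3%), all 7 lower. On day 6 it was 0 at 0.01 (0.0721% of all genes), 0 with no filter (0.488%), 0 with only the groups compared (0.00%) and 0 without chow replicate 4 and day 2 replicate 1 (0.0196%), an alternative chosen after seeing the data. For day 4 against day 2 it was 2 with DESeq2 (6.41%) and 7 with limma-voom (22.2%), and for day 6 against day 4 it was 8 with limma-voom (13.2%). For day 14 against day 4 it was 1 with DESeq2 (13.2%) and 5 with limma-voom (31.0%), and for any difference 1 (29.5%) and 9 (41.7%). Leaving out 1 library gave 0 to 0 on days 2 and 14, 0 to 5 on day 4, 0 to 1 on day 6, 0 to 6 for day 4 against day 2, 0 to 3 for day 6 against day 4, 0 to 5 for day 14 against day 4 and 0 to 3 for any difference.

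Of the 39 other pathway genes, day 2 had 0 called at 0.01, 2 with DESeq2 size factors, 4 with library size only, 2 with the stricter filter, 7 with DESeq2, 7 with limma-voom, 0 without both doubted libraries and 0 to 11 with 1 library left out (0 without day 2 replicate 1, 11 without day 2 replicate 2). Day 4 had 8 at 0.01 and 9 to 13 with 1 left out. Day 6 had 1 at 0.01, 5 with DESeq2, 5 with limma-voom, 0 with only the groups compared, 0 without both doubted libraries and 0 to 4 with 1 left out. Day 14 had 1 with the stricter filter, 2 with DESeq2, 3 with limma-voom, 1 with only the groups compared and 0 to 1 with 1 left out. Day 4 against day 2 had 2 with DESeq2, 12 with limma-voom and 0 to 4 with 1 left out; day 6 against day 4 had 10 with limma-voom and 0 to 2. Day 14 against day 4 had 0 at 0.01, 1 with no filter, 13 with limma-voom and 0 to 7 with 1 left out. Any difference had 2 at 0.01, 22 with limma-voom, 5 without both doubted libraries and 4 to 11 with 1 left out. Over all genes DESeq2 and limma-voom called 9.71% and 8.06% on day 2, 7.80% and 6.66% on day 6, and 4.53% and 3.62% on day 14. The cause of these moves was not tested.

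Of 16 correlations between same-numbered libraries of chow and other days, from -0.12 to 0.28, 3 exceeded 0.1. Differently numbered libraries were not compared, so these values cannot decide whether replicate numbers pair the libraries. With the replicate block, 1 enzyme was called for day 14 against day 4 and 1 for any difference, and of the pathway genes 4 on day 2, 1 on day 14 and 1 for day 4 against day 2. With library totals as the only scaling, the median change of all genes was -0.14, -0.13, -0.14 and -0.10 on days 2, 4, 6 and 14, a shift of -0.11, -0.11, -0.13 and -0.09 from that under TMM.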
